A study of Mus musculus with 4 samples.

Results

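The comparison described here sets mouse myoblasts that carried a Twist2 virus and had been differentiated against myoblasts that carried a green fluorescent protein (GFP) virus and had not. It asks how far differentiated Twist2 cells stood from the starting myoblast state. The deposited table gives CPM values, a gene's reads scaled to its library's total, for 3760 genes in 4 libraries, and all 3760 genes were compared between the 2 libraries concerned. RNA came from cultured myoblasts, named Twist2-positive by the labels, of adult C57BL/6 skeletal muscle. All cells were infected with a retrovirus for 24 h and then kept for 24 h in growth medium, Ham's F10 with 20% fetal bovine serum, on matrigel. GFP growth medium cells, which received the GFP virus, were harvested at that point. Twist2 differentiation medium cells received a Twist2-IRES-GFP virus, so that both viruses carry GFP, and were harvested 5 days after the change to high-glucose DMEM with 2% horse serum. The other 2 libraries, GFP differentiation medium and Twist2 growth medium, differ from the starting library in 1 factor each. They are used below to place each value.

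Virus and medium both differ between the 2 libraries compared, and each group has 1 library. No p-value was computed, and the differences have no replicate check. The effect of the virus, of the medium, of its serum and of the single library cannot be told apart within this pair. In such bulk RNA, fewer cells of a kind and less RNA per cell cannot be told apart either. Ratios are log2 of (CPM + 1) in Twist2 differentiation medium over the same in GFP growth medium. For sparsely read genes the added 1 CPM pulls the ratio towards 0. The 95% counting intervals are of the plain ratio of reads, were computed by the exact binomial (Clopper-Pearson) method, and hold for counting error alone. A gene is called different at a 2-fold ratio.

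Myoblasts that leave the cell cycle turn on myogenin (Myog), fuse through membrane proteins such as myomaker, and assemble contractile filaments of myosin, actin, troponin and titin. MyoD-family factors act by binding short E-boxes, of the letters CANNTG, together with a partner protein. Twist proteins belong to the same basic helix-loop-helix class, bind E-boxes too, and are known for mesenchymal gene expression and as inhibitors of myogenesis. Genes of mitosis are commonly held off in resting cells through an element called CHR (cell cycle genes homology region). CCAAT boxes often lie near it.

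Promoters of 5 genes on which the results turn are shown, because E-boxes, CCAAT boxes and CHR elements lie in this kind of region. They run from 250 bases before to 50 bases after the RefSeq start of each gene in GRCm38.p6. Capitals mark E-boxes (CANNTG) in Myh3, Myog, Acta1 and Col6a1, and CCAAT boxes (CCAAT or ATTGG) and CHR letters (TTTGAA) in Mki67. Myh3 encodes the embryonic myosin heavy chain, Acta1 skeletal alpha actin, Col6a1 a chain of collagen VI, and Mki67 the proliferation antigen Ki-67.
Myh3 promoter, chr11:67078050-67078349, plus strand: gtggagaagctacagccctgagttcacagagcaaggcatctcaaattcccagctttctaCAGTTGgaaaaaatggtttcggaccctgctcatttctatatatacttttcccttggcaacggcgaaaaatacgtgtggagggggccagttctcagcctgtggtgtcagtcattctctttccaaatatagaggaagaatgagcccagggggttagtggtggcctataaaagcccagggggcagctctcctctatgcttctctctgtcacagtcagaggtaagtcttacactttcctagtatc
Myog promoter, chr1:134289754-134290053, plus strand: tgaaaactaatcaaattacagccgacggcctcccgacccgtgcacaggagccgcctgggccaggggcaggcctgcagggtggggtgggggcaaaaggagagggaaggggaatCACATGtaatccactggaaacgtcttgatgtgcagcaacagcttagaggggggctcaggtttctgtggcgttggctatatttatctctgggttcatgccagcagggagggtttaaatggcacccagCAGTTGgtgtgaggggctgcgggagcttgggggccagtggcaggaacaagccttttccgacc
Acta1 promoter, chr8:123894726-123895025, minus strand: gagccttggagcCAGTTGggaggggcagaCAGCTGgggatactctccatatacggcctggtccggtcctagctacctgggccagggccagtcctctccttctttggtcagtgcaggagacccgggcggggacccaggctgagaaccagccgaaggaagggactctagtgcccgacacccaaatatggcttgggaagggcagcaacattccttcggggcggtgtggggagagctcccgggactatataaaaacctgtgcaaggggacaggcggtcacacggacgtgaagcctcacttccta
Mki67 promoter, chr7:135716330-135716629, minus strand: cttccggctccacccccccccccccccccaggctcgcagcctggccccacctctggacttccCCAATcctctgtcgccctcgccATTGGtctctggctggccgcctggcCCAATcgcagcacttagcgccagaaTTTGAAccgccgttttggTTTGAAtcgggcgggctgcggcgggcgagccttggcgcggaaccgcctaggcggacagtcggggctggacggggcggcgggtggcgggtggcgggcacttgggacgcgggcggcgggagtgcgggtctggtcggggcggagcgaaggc
Col6a1 promoter, chr10:76725995-76726294, minus strand: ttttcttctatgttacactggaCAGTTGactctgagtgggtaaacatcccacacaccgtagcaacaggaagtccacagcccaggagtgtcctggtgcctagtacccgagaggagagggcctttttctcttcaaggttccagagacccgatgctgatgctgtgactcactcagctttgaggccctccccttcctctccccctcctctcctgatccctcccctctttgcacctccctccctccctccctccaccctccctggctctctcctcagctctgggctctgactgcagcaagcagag

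A promoter was found for 2972 of the 3760 genes, or 3920 promoters in all. Motifs were searched on both strands. The form CAGCTG is one of the CANNTG forms. CAGCTG was present in 23.2% of the 956 promoters of genes called higher, 13.4% of the 1241 of genes called lower, 17.5% of all 3920 and 16.3% of the 32851 promoters of the RefSeq table. CATCTG or its reverse CAGATG was present in 14.6%, 9.43%, 11.3% and 17.2% in the same order. The 15 thin filament promoters held CAGCTG in 8 cases (53.3%). The 17 collagen promoters held any CANNTG in 7 cases (41.2%), against 64.3% of the 3920 promoters of listed genes and 72.3% of the RefSeq promoters. Among 52 promoters of mitosis genes, 38 (73.1%) held TTTGAA or TTCAAA and 40 (76.9%) held CCAAT or ATTGG. In the 3920 promoters of listed genes these shares were 12.7% and 38.9%, and in the 32851 RefSeq promoters 17.9% and 37.4%. CCAAT or ATTGG was not particular to lowered genes. It was held by 40.1% of promoters of genes called higher and 40.0% of those of genes called lower. Of 16 promoters of sterol and fatty acid genes, a list whose members were all higher, 13 (81.25%) held it. A match of letters describes the window and is no measure of binding.

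The libraries compared held 9744075 reads (GFP growth medium) and 12362290 reads (Twist2 differentiation medium). The table's genes took 39.3% and 47.2% of them. Twist2 (chromosome 1, 91801461 to 91848028, GRCm38) had 1 read in the starting library and 8335 in the Twist2 library, 0.103 and 674 CPM. Its level thus matches the virus labels, and the presence of the GFP virus was not checked. The cells are named Twist2-positive, yet the GFP growth and GFP differentiation libraries held 1 and 0 Twist2 reads. Reads of the viral and the endogenous copy are not separated. The myoblast markers Myod1 (1184 and 1068 CPM), Des (1501 and 2935 CPM) and Cdh15 (598 and 800 CPM) were high in both. Others of the same myoblast and muscle marker list differed. Pax7 was lower (78.7 and 34.6 CPM), and Myog (76.4 and 378 CPM) and Myh3 (25.9 and 2528 CPM) were higher. None of 12 endothelial and none of 14 immune markers is in the table, which does not show that they are unexpressed. Of 18 smooth muscle and pericyte markers 9 are listed, and their summed level was 2250 CPM before and 8558 CPM after, mostly through Acta2 and Des, which muscle cells also express. Of these 9, 4 were at least 2-fold higher and 3 lower, beside 25.7% and 32.1% of all 3760 listed genes. The 4 higher included Tagln (4.18), Acta2 (3.80) and Abcc9 (4.004, from 3 reads at the start). The 3 lower were Rgs4 (-4.17), Rgs5 (-3.21) and Mcam (-2.51).

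Transcript length moved with the ratio. The median log2 ratio was 0.50 in the shortest of 5 equal groups of genes by transcript length (303 to 2138 bp), -0.01, -0.24 and -0.40 in the following groups, and -0.92 in the last (6126 to 106824 bp). In GFP differentiation medium over the same starting library the medians ran from -0.26 through -0.67 to -0.17, without that slope. In Twist2 growth medium over that library they went down from group to group, from 0.08 for the shortest to -0.37 for the longest. The long nuclear RNAs Malat1 and Xist, singled out after their values were seen, were low in Twist2 differentiation medium. Malat1 stood at 1340 CPM in GFP growth, 3610 in GFP differentiation, 1317 in Twist2 growth and 236 in Twist2 differentiation medium. Xist stood at 1910, 1097, 992 and 118 CPM in the same order. The 45S ribosomal precursor Rn45s was 2088 CPM at the start and 4144 CPM in Twist2 differentiation medium. The part of length or RNA quality in single ratios was not tested. For some lists the values after centring each length group are given as well.

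**Figure D1:**
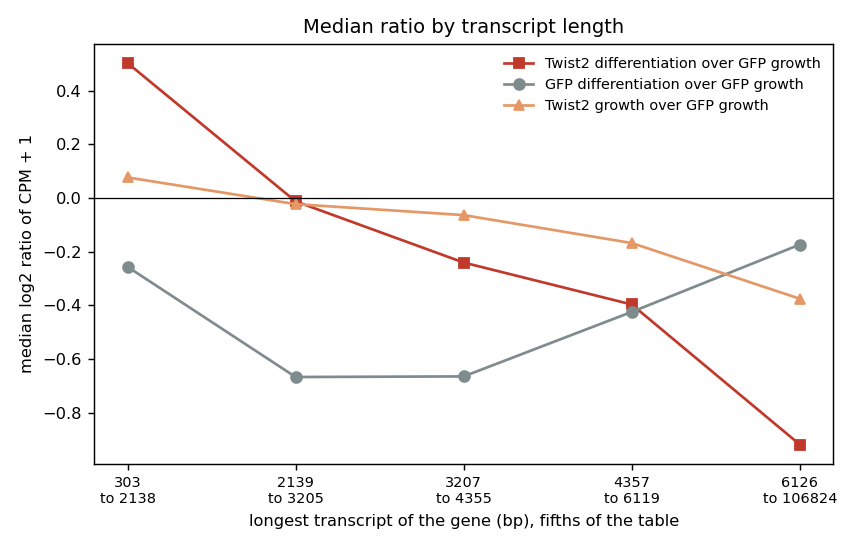
Median log2 ratio of CPM + 1 (y axis) in 5 groups of genes by the length of their longest transcript in bp (x axis), for 3 comparisons with the GFP growth medium library. The Twist2 differentiation medium line starts at 0.50 for short transcripts and ends at -0.92 for long ones.

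Differentiated Twist2 cells differed from the starting library in most listed genes, and fewer genes were far away than in differentiated GFP cells. Of 3756 genes that reached 10 CPM in either library, 968 (25.8%) lay 2-fold or more above the start, 1206 (32.1%) lay as far below it and 1582 were within 2-fold. In all, 57.9% were called. All 2174 called genes had a counting interval that excluded equal levels, which compares these libraries only. Differentiated GFP cells, set against the same starting library, had 1205 genes higher and 1511 lower of 3694 (73.5% called). Twist2 cells in growth medium had 183 higher (5.21%) and 372 lower of 3514. The 3 comparisons share the starting library. Differences of at least 8-fold numbered 195 in Twist2 differentiation medium, 145 higher and 50 lower, and 467 in GFP differentiation medium, 225 higher and 242 lower. The median absolute log2 ratio was 1.10 for Twist2 differentiation, 1.32 for GFP differentiation and 0.41 for Twist2 growth medium. The table lists only genes that differ 2-fold from this starting library in at least 1 of the authors' 3 comparisons, which raises all of these shares. For 788 genes the 2-fold difference held in Twist2 differentiation medium alone.

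The split between higher and lower depended on scaling. Of the called genes 44.5% were higher, and 55.6% were when the reads of unlisted genes set the scale, called outside-table scaling below (1125 higher and 898 lower). With median-of-ratios size factors the share was 60.5% (1191 and 777). The median over all genes, -0.23, moved up by 0.20 and 0.28 respectively. After centring of length groups 1035 genes were higher and 828 lower. These counts are of 3717 genes with the outside-table scaling, 3710 with size factors and 3742 with centring. The shares of all listed genes set beside the lists below are of the main setting. List counts under another setting belong beside that setting's counts given here, because all genes shift with the scale.

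**Figure D2:**
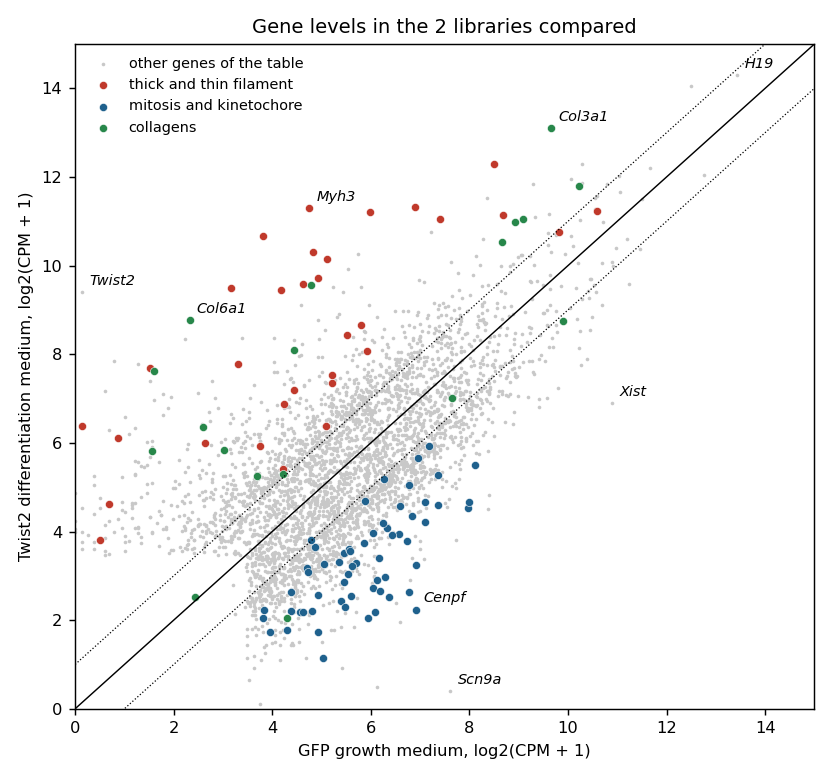
Each point is a gene of the table, at log2(CPM + 1) in GFP growth medium (x axis) and in Twist2 differentiation medium (y axis); the solid line marks equal levels and dotted lines 2-fold. Filament genes (red) lie above the diagonal, mitosis genes (blue) below it, and most collagen genes (green) above it.

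Contractile genes were far above the starting level, yet below that of differentiated GFP cells. Of 61 listed contractile genes 48 were at least 2-fold higher and 1 was lower, where 25.7% of all 3760 listed genes were higher without a CPM minimum. The median log2 ratio was 2.85, against -0.23 for all listed genes. Together they took 0.987% of reads in GFP growth, 0.443% in Twist2 growth, 4.0% in Twist2 differentiation and 15.1% in GFP differentiation medium. Their share thus lay between the 2 GFP libraries.

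All 14 thick filament genes in the table were higher (median 4.63). All 14 were also at least 2-fold lower than in differentiated GFP cells, a comparison in which 23.1% of the 3760 genes were lower and 49.8% were called in all. Myh3 (chromosome 11, 67078300 to 67102291) was 25.9 CPM in GFP growth, 5.06 in Twist2 growth, 2528 in Twist2 differentiation and 27313 in GFP differentiation medium. Its log2 ratio was 6.56 (interval 6.43 to 6.80), and it was thus 97.7-fold above the start by reads. The atrial and embryonic light chain Myl4 went with it, from 13.1 CPM at the start to 1634 CPM in differentiated Twist2 and 5015 CPM in differentiated GFP cells (6.85, interval 6.71 to 7.22). The perinatal myosin Myh8 had 1 read at the start and 82.0 CPM in differentiated Twist2 cells, with a log2 interval of 7.16 to 14.95. Mybpc1, a myosin-binding protein of slow fibres, was 1.85 and 204 CPM (6.17), and Mybph 33.6 and 1142 CPM (5.05). The slow myosin Myh7 was 0.821 and 67.8 CPM (5.24). Myosin genes and alpha actin genes are close copies of one another, and how reads that fit several copies were counted is not given in the sources used here.

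Among 18 thin filament genes 16 were higher (median 3.09) and none was lower. Acta1 stood at 62.4 CPM in GFP growth, 9.31 in Twist2 growth, 2381 in Twist2 differentiation and 12797 in GFP differentiation medium (5.23, interval 5.14 to 5.37). Cardiac actin Actc1 was 27.4 and 1268 CPM in the 2 libraries compared (5.48). Tnnc2, the fast troponin C, was 8.0 and 723 CPM (6.33), Tnnc1, the slow and cardiac form, 17.0 and 696 CPM (5.27), and slow troponin I Tnni1 23.6 and 763 CPM (4.96). Acta2, the smooth muscle actin that developing muscle also expresses, was 361 and 5050 CPM (3.80). Differentiated GFP cells had 7948 CPM, and the log2 ratio of differentiated Twist2 to differentiated GFP cells was -0.65. The 2 members within 2-fold, named after their values were seen, were the nebulin gene Neb (907 and 1732 CPM, 0.93) and the tropomyosin gene Tpm1 (1546 and 2410 CPM, 0.64).

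The Z-disc, titin and costamere list was more mixed, with 18 of 29 higher, 1 lower and a median of 1.79. Actn2, the Z-disc alpha-actinin, had 5 reads at the start and 144 CPM in differentiated Twist2 cells (6.58, interval 6.90 to 9.75). Ablim3 (1.03 and 95 CPM, 5.57) and Smpx (2.67 and 109 CPM, 4.91) were also among the highest. Myoz2, a calcineurin-binding Z-disc protein, had 0 reads at the start and was at least 48.6-fold higher. Capn3, the muscle calpain, had 1 read at the start and 22.2 CPM after (4.4). Ankrd1, a stretch-responsive ankyrin repeat protein, was lower, at 1424 and 461 CPM (-1.63), where differentiated GFP cells had 1930 CPM. With size factors 22 of the 29 were higher.

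Calcium handling and synaptic genes are set beside the 25.7% of all listed genes that were higher. Of 17 genes of excitation-contraction coupling 12 were higher and none lower (median 1.80, or 2.52 after length centring). Casq2, the calcium-binding calsequestrin, was 3.69 and 324 CPM (6.11), and Cacna1s, the voltage sensor of the calcium channel, 2.46 and 137 CPM (5.31). Srl (22.9 and 556 CPM, 4.54), Hrc (15.3 and 227 CPM, 3.81) and Cacng1 (18.8 and 197 CPM, 3.33) followed. Of 11 neuromuscular junction genes 4 were higher and 1 lower (median 0.95), with 6 higher under either other scaling. The acetylcholine receptor subunit gene Chrnd was 122 CPM in GFP growth, 10.8 in Twist2 growth, 264 in Twist2 differentiation and 745 in GFP differentiation medium (1.11). Musk, the kinase that organises the synapse, was lower, at 266 and 100 CPM (-1.40).

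Of 18 muscle energy genes 12 were higher and 1 lower (median 1.75), beside 25.7% and 32.1% of all listed genes. Mb, encoding myoglobin, was 1.85 and 168 CPM (5.89), and Ckm, muscle creatine kinase, 2.46 and 98.7 CPM (4.85). The muscle cytochrome oxidase subunits Cox8b (1.13 and 72.0 CPM, 5.10) and Cox6a2 (1.74 and 63.7 CPM, 4.56) were higher as well. The glucose transporter gene Slc2a4 had 0.411 CPM at the start and 22.2 CPM after (4.04). Pdk4, a brake on glucose oxidation, was lower (237 and 51.9 CPM, -2.17). None of the 6 listed respiratory chain and citric acid cycle genes reached 2-fold (median 0.54), and 1 of them, Atp5g1, did so under either other scaling.

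**Figure D3:**
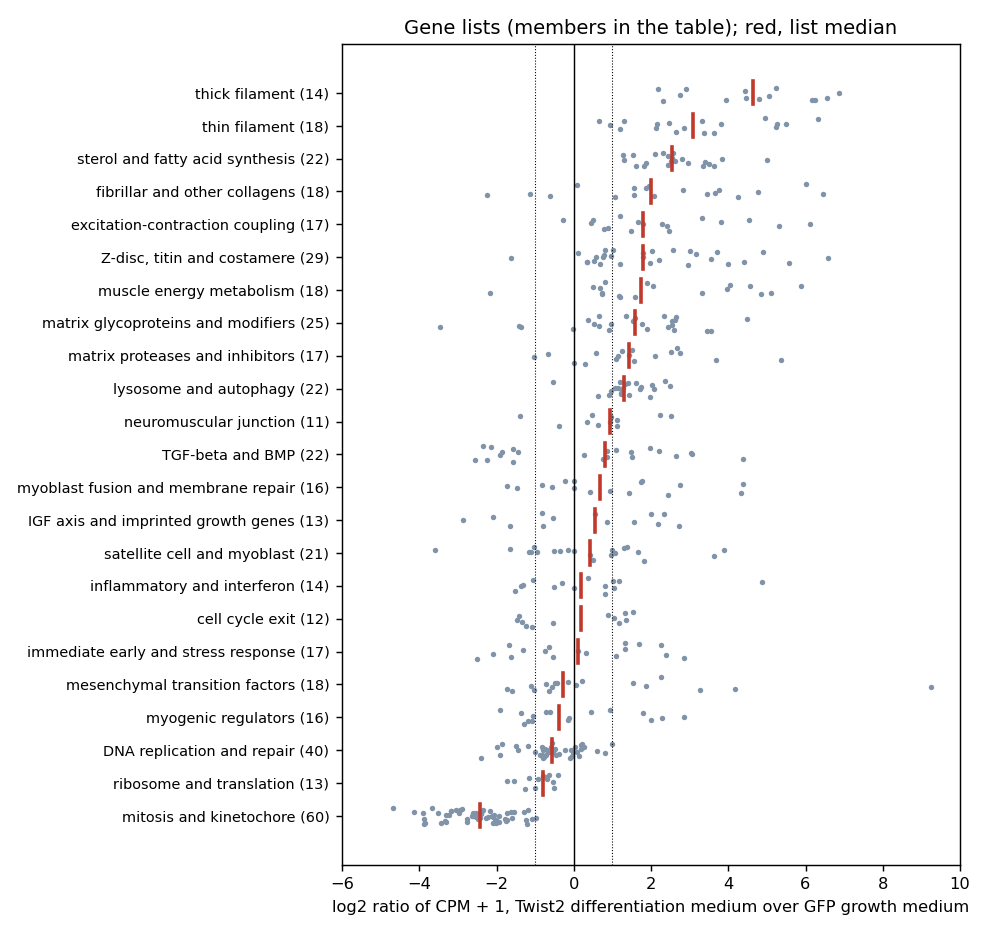
Log2 ratio of Twist2 differentiation medium over GFP growth medium (x axis) for members (points) of the 23 lists with at least 10 genes in the table; red bars are medians and dotted lines mark 2-fold. Medians run from 4.63 for the thick filament to -2.43 for mitosis.

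Regulators of myogenesis included genes on either side of the start. Myog (chromosome 1, 134289989 to 134292548) was 76.4 CPM in GFP growth, 3.52 in Twist2 growth, 378 in Twist2 differentiation and 1075 in GFP differentiation medium. Its ratio here was 2.29 (interval 2.19 to 2.42). The differentiated Twist2 cells thus exceeded the start after a virus step down to 3.52 CPM. Myod1 was nearly level, at 1184 and 1068 CPM (-0.15, interval -0.18 to -0.11). Mef2c, a muscle transcription factor, reached 10.03 CPM from 0.513 CPM, or 5 reads (2.87, interval 3.03 to 5.94), against 264 CPM in differentiated GFP cells. Tead4 was 12.5 and 46.1 CPM (1.80). Eya4 (146 and 38.2 CPM, -1.90) and Six4 (103 and 39.6 CPM, -1.36), members of a cofactor and factor pair that act upstream of MyoD-family genes, were lower. In all 4 of 16 listed regulators were higher and 6 lower (median -0.38), shares near the 25.7% and 32.1% of all listed genes. Of the 16, 2 were lower with size factors, 3 with the outside-table scaling and 1 after length centring.

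The fusion and membrane repair list had 7 of 16 members higher and 2 lower (median 0.68), beside 25.7% and 32.1% of all listed genes. Tmem8c, which encodes myomaker (chromosome 2, 27061636 to 27072179), was 45.6 CPM in GFP growth, 4.25 in Twist2 growth, 963 in Twist2 differentiation and 2972 in GFP differentiation medium (4.37, interval 4.26 to 4.54). Trim72, which encodes the membrane repair protein MG53, was 15.4 and 330 CPM (4.34). Adam12, a fusion-linked metalloprotease, was 2.26 CPM in GFP growth and 21 in Twist2 differentiation medium (2.76), while differentiated GFP cells had 2.17 CPM. Anxa2 (1212 and 366 CPM, -1.72) and Cav1 (154 and 55.5 CPM, -1.46) were lower.

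Of the satellite cell and myoblast list 21 genes were measured, with 7 higher and 5 lower (median 0.42, or 9 higher and 2 lower with size factors), not far from the 25.7% and 32.1% of all listed genes. Pax7, the satellite cell factor, was 78.7 CPM in GFP growth, 60.5 in Twist2 growth, 34.6 in Twist2 differentiation and 4.01 in GFP differentiation medium. Its ratio of -1.16 (interval -1.36 to -1.01) was -0.88 with size factors. Met, the hepatocyte growth factor receptor, was 336 and 27.2 CPM (-3.58), next to the 27.4 CPM of differentiated GFP cells. On the higher side stood Spry1, a growth factor antagonist (6.47 and 109 CPM, 3.89), the Notch target gene Hey1 (12.6 and 47.1 CPM, 1.82), and Hes6 (140 and 448 CPM, 1.67). Chodl had 1 read at the start and 12.6 CPM after (3.63). The Notch receptor gene Notch3, named after its values were seen, was 126 CPM at the start, 313 in differentiated Twist2 and 4.98 in differentiated GFP cells (1.30).

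**Figure D4:**
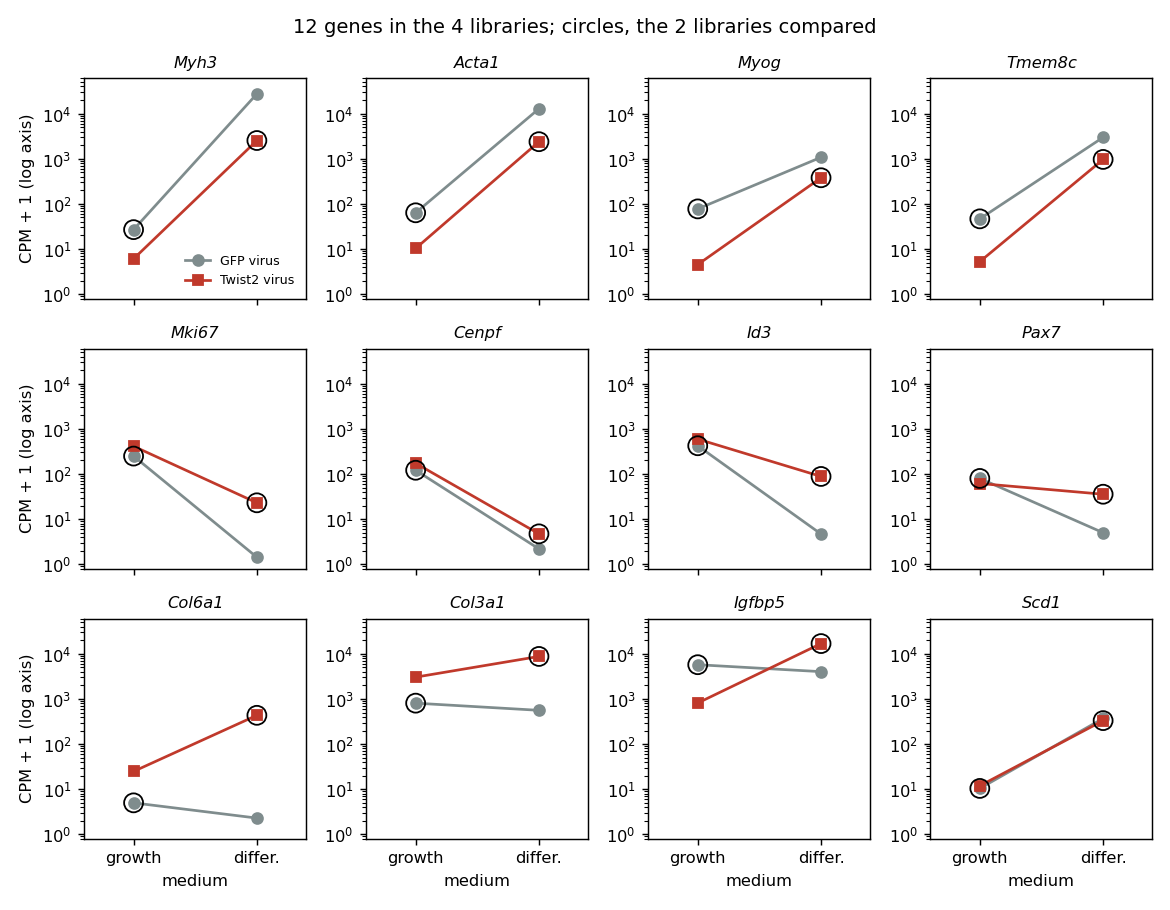
CPM + 1 on a log axis (y) of 12 genes in growth and differentiation medium (x), with 1 library per point; grey circles are GFP and red squares Twist2 libraries, and open rings mark the 2 libraries compared. Muscle genes end below the GFP line, Mki67, Id3 and Pax7 end above it, and Scd1 ends level with it.

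Mitosis genes were almost all lower, while most DNA replication genes were within 2-fold of the starting level. Of 60 mitosis and kinetochore genes 59 were at least 2-fold lower (median -2.43) beside 32.1% of all 3760 listed genes, and 55 to 60 were under the other settings. The gene within 2-fold, Ncaph, stood at 26.6 and 13.1 CPM (-0.97). Cenpf, a kinetochore protein gene, was 120 CPM in GFP growth, 172 in Twist2 growth, 3.72 in Twist2 differentiation and 1.19 in GFP differentiation medium (-4.68, interval -5.47 to -4.59). Cenpe, a mitotic kinesin, was 109 and 5.26 CPM (-4.13), and the spindle genes Aspm (67.1 and 3.56 CPM, -3.90) and Hmmr (82.1 and 4.77 CPM, -3.85) followed. Casc5 (31.8 and 1.21 CPM, -3.89) and Kif20b (60.4 and 3.15 CPM, -3.89) completed the 6 lowest of the list. Mki67 was 248 CPM at the start, 22 in differentiated Twist2 and 0.433 in differentiated GFP cells (-3.44, interval -3.68 to -3.31). The 7 members with the longest transcripts had a median of -3.89 and the 10 with the shortest one of -2.01, and all 17 were lower.

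Of 40 DNA replication and repair genes 8 were lower and none higher (median -0.57), a smaller share lower than among all listed genes. The same list in differentiated GFP cells had a median of -2.50. In Twist2 growth medium over the start its median was 0.40, and in Twist2 differentiation over Twist2 growth medium -0.94. Over all listed genes these medians were -0.10 and -0.22. A level near the start here thus does not mean an unchanged level in Twist2 cells. Brca2 (16.8 and 2.35 CPM, -2.41) and Rrm2, a ribonucleotide reductase subunit (348 and 87.7 CPM, -1.98), had the lowest ratios. Fancd2 (20.9 and 4.85 CPM, -1.91), the polymerase subunit gene Pola1 (31.3 and 7.93 CPM, -1.86), Hells (22.2 and 7.28 CPM, -1.48) and Fanca (23.4 and 8.01 CPM, -1.44) were also lower. Of the replication fork genes, named after their values were seen, the helicase subunit gene Mcm3 was 34.1 CPM in GFP growth, 38.7 in differentiated Twist2 and 5.96 in differentiated GFP cells (0.18, interval -0.02 to 0.39). Mcm5 was 31.7, 31.0 and 6.71 CPM in the same order. Pcna, the sliding clamp, was 34.5, 40.1 and 15.1 CPM.

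Cell cycle exit genes split, with 5 of 12 higher and 5 lower (median 0.18, or -0.07 after length centring), beside 25.7% and 32.1% of all listed genes. Cdkn1a, encoding the inhibitor p21, was 787 CPM in GFP growth, 382 in Twist2 growth, 2286 in Twist2 differentiation and 3223 in GFP differentiation medium (1.54). The D-type cyclin genes, which drive entry into the cell cycle, differed: Ccnd1 was 700 and 254 CPM (-1.46) and Ccnd2 255 and 643 CPM (1.33). Differentiated GFP cells had 30.0 and 162 CPM of these. Btg2, an antiproliferative gene, was 91.0 and 236 CPM (1.36).

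Extracellular matrix genes took a larger share of reads than in either GFP library. Of 60 listed matrix genes 41 were at least 2-fold higher than at the start and 6 lower (median 1.58). Of all listed genes 25.7% were higher and 32.1% lower, shares that also stand beside the matrix lists below. They took 1.58% of reads in GFP growth, 2.68% in Twist2 growth, 4.23% in Twist2 differentiation and 0.852% in GFP differentiation medium. In differentiated Twist2 cells their share (interval 4.22% to 4.24%) exceeded the 4.0% of the listed contractile genes. The table holds 60 of 113 matrix names and 61 of 77 contractile names. The order of the 2 shares therefore depends on which genes are listed, which the counting interval does not cover.

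Of 18 collagen genes 14 were higher and 2 lower (median 2.01, or 2.93 after length centring). Col6a1 (chromosome 10, 76708792 to 76726168) was 4.0 CPM in GFP growth, 23.9 in Twist2 growth, 433 in Twist2 differentiation and 1.30 in GFP differentiation medium (6.44, interval 6.31 to 7.25). Its partner chain Col6a3 was 2.05, 17.0, 195 and 0.650 CPM in that order (6.00). The fibril-associated Col12a1 was 26.6 CPM at the start and 753 CPM after (4.77), and Col11a1 1.95 and 55.2 CPM (4.25). Col3a1, a fibrillar collagen of loose connective tissue, was 807 CPM at the start, 3043 in Twist2 growth and 8750 in Twist2 differentiation medium (3.44), which was 0.875% of that library's reads (interval 0.870% to 0.880%). Col1a2, a chain of the major fibrillar collagen, was lower, at 18.6 and 3.15 CPM (-2.24). Col18a1, a basement membrane collagen, was 951 and 431 CPM (-1.14), but -0.85 with size factors and -0.94 with the outside-table scaling.

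Matrix glycoproteins and their modifying enzymes had 15 of 25 members higher and 3 lower (median 1.59). The small proteoglycan genes Dcn (1.95 and 64.6 CPM, 4.47) and Bgn (148 and 1743 CPM, 3.55) and the crosslinking enzyme genes Lox (10.7 and 128 CPM, 3.46) and Loxl1 (24.0 and 156 CPM, 2.65) were the highest. Pcolce2, an enhancer of procollagen processing, was lower (36.9 and 2.43 CPM, -3.47). Fn1, encoding fibronectin, was 3248 CPM in GFP growth, 5150 in Twist2 growth, 4685 in Twist2 differentiation and 119 in GFP differentiation medium (0.53). Of 17 matrix protease and inhibitor genes 12 were higher and 1 lower (median 1.44). Adamts1, a protease of the proteoglycan versican, was 2.05 and 124 CPM (5.35), and differentiated GFP cells had 293 CPM. Plat, tissue plasminogen activator, was 11.3 and 156 CPM (3.68), and differentiated GFP cells had 0.650 CPM.

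**Figure D5:**
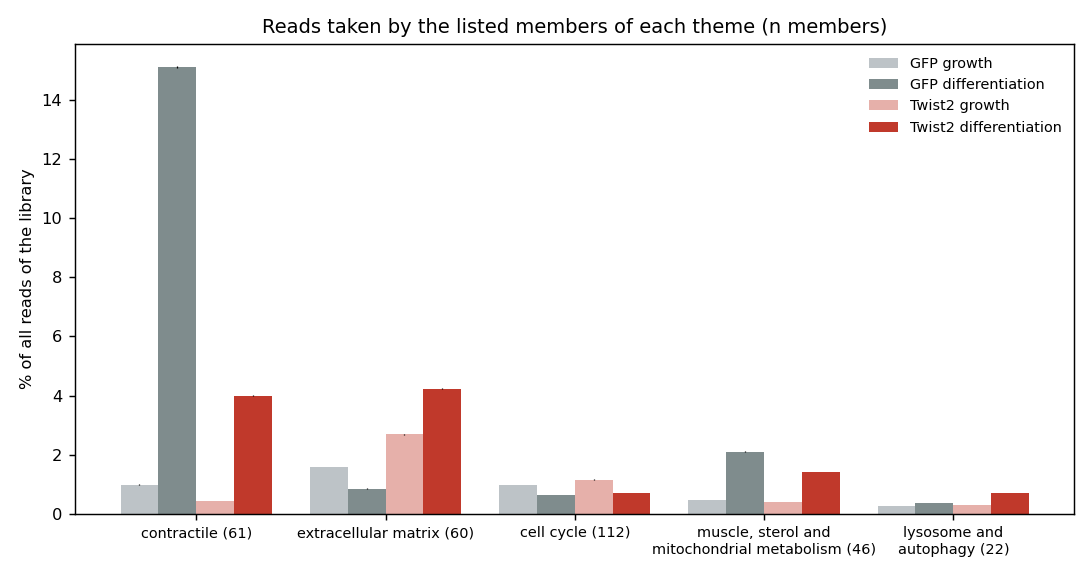
Percent of all reads of each library (y axis, from 0) taken by listed genes of 5 themes (x axis, with the number of genes); bars are single libraries and error bars, barely visible, are 95% counting intervals. Contractile genes took 15.1% in GFP and 4.0% in Twist2 differentiation medium, and matrix genes 0.852% and 4.23%.

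Some genes that were low in differentiated GFP cells stood at the starting level in differentiated Twist2 cells. Among genes within 1.2-fold of the start, Gja1, the gap junction protein connexin 43, was 226 CPM in GFP growth, 268 in Twist2 differentiation and 2.82 in GFP differentiation medium. The chemokine gene Cxcl12 was 117, 117 and 2.92 CPM in the same order, and the membrane protein gene Emp1 436, 385 and 18.1 CPM. The netrin receptor gene Unc5b was 612, 602 and 61.9 CPM, and Lasp1, an actin-binding protein, 141, 151 and 13.5 CPM. Hsd17b11 was 12.2, 12.2 and 0.108 CPM. In Twist2 growth medium each of the genes named here stood above the start. There Gja1 was 473, Cxcl12 204, Emp1 673, Unc5b 1247, Lasp1 241 and Hsd17b11 19.3 CPM. A level like the start in Twist2 differentiation medium thus does not mean an unchanged level in Twist2 cells. These were picked for a large difference from the start in differentiated GFP cells, so their pattern is a description.

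Another set lay above the start in differentiated Twist2 cells and below it in differentiated GFP cells, and was likewise picked for that pattern. The collagen receptor gene Mrc2 was 36.3 CPM in GFP growth, 303 in Twist2 growth, 737 in Twist2 differentiation and 4.76 in GFP differentiation medium. Thbs2, a thrombospondin, was 135, 321, 786 and 13.6 CPM in that order. Fbn1, which encodes the microfibril protein fibrillin, was 100.2, 308, 506 and 8.12 CPM. Col5a3 was 20.6, 65.3, 274 and 2.71 CPM, and the gelatinase gene Mmp2 24.7, 60.6, 109 and 1.52 CPM. Sema7a (40.3, 107, 177 and 6.71 CPM) and the giant cadherin gene Fat4 (9.34, 36.0, 58.6 and 0.975 CPM) completed the set with Plat.

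TGF-beta and BMP genes were split. Of 22 listed, 9 were higher and 9 lower (median 0.81), beside 25.7% and 32.1% of all listed genes. Among secreted members on the higher side, the ligand gene Tgfb3 stood at 57.4 and 366 CPM (2.65), the activin antagonist gene Fst at 10.5 and 92.9 CPM (3.03) and Fstl3 at 6.77 and 63.9 CPM (3.06). Lrrc32, which anchors latent TGF-beta at the cell surface, was 1.33 and 47.6 CPM (4.38). The BMP target genes Id2 (330 and 55.5 CPM, -2.55) and Id3 (421 and 87.2 CPM, -2.26), inhibitors of basic helix-loop-helix factors, and the pathway repressor Skil (282 and 54.0 CPM, -2.36) were lower. Differentiated GFP cells had 9.10 CPM of Id2 and 3.68 CPM of Id3.

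Among 18 mesenchymal transition genes, 6 lay higher, Twist2 itself included, and 4 lower (median -0.29). These counts are not far from the 25.7% and 32.1% of all listed genes. Under either other scaling 2 of the 18 were lower. Apart from Twist2, the highest were Tagln, an actin-binding protein of smooth muscle (6.16 and 129 CPM, 4.18), Runx1t1 (0.513 and 13.5 CPM, 3.26) and the integrin gene Itgb3 (6.98 and 36.9 CPM, 2.25). Cdh11, a mesenchymal cadherin, was 73.7 CPM at the start, 273 in differentiated Twist2 and 11.4 in differentiated GFP cells (1.88). Twist1 was 13.6 CPM at the start and 9.87 after (-0.43, interval -0.83 to -0.10), and Runx2 118 and 34.9 CPM (-1.72). Of 14 inflammatory genes 4 were higher and 4 lower, near the shares of all listed genes. Il1rl1, the interleukin 33 receptor, had 0 reads in both GFP libraries and 26.7 and 28.2 CPM in the Twist2 libraries, at least 91.7-fold above the start after differentiation.

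Growth factor genes of the insulin-like growth factor (IGF) axis were among the most abundant. H19, an imprinted noncoding RNA, took 2.02% of reads in Twist2 differentiation medium (interval 2.01% to 2.03%) and 1.11% in GFP growth medium (0.86). Igfbp5, an IGF-binding protein, was 5739 CPM in GFP growth, 813 in Twist2 growth, 16858 in Twist2 differentiation and 4025 in GFP differentiation medium (1.55). Igfbp3 was 308, 47.3, 1553 and 121 CPM in that order (2.33). Igf2 was 1252 CPM at the start and 4986 CPM after (1.99), and the receptor gene Igf2r 68.9 and 457 CPM (2.71). Plagl1, an imprinted zinc finger factor, was lower (1192 and 280 CPM, -2.09), as were Peg3 (2412 and 766 CPM, -1.65) and the noncoding Meg3 (10.5 and 0.566 CPM, -2.87). Of the 13 listed genes of this axis 5 were higher and 3 lower, beside 25.7% and 32.1% of all listed genes.

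Sterol and fatty acid genes were all higher, at levels like those of differentiated GFP cells. All 22 listed members were at least 2-fold higher (median 2.53), under every setting tried, beside 25.7% of all listed genes. Against differentiated GFP cells none of the 22 reached 2-fold in either direction (median -0.18). Scd1, a fatty acid desaturase (chromosome 19, 44394455 to 44407879), was 9.44 CPM in GFP growth, 10.9 in Twist2 growth, 331 in Twist2 differentiation and 370 in GFP differentiation medium (4.99, interval 4.83 to 5.44). The cholesterol synthesis genes Cyp51 (29.5 and 435 CPM, 3.84), Msmo1 (23.4 and 299 CPM, 3.62) and Nsdhl (16.0 and 193 CPM, 3.51) and the regulator Insig1 (22.9 and 250 CPM, 3.39) followed.

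Lysosome and autophagy genes were higher in 18 of 22 cases and lower in none (median 1.31), with 13 higher after length centring. Beside both lists of this paragraph stand the 25.7% of all listed genes that were higher and the 32.1% that were lower. In differentiated GFP cells the median of the list was 0.33. The cathepsin genes Ctsl (216 and 905 CPM, 2.07) and Ctsb (266 and 886 CPM, 1.73), Hexa (43.5 and 247 CPM, 2.48) and Neu1 (22.3 and 119 CPM, 2.36) encode lysosomal enzymes, and Tfeb (3.90 and 18.8 CPM, 2.01) a regulator of lysosome genes. Ribosome and translation genes had 5 of 13 lower and none higher (median -0.80), with 2 lower with size factors and 10 after length centring. Npm1, a nucleolar protein, was 453 and 136 CPM (-1.73), and Ncl 833 and 285 CPM (-1.54).

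Immediate early and stress genes split into 7 higher and 5 lower of 17 (median 0.11), beside 25.7% and 32.1% of all listed genes. Ier2 (13.9 and 106 CPM, 2.85), Fos (12.3 and 69.0 CPM, 2.39), Egr1 (103 and 336 CPM, 1.70) and Ddit4 (47.9 and 232 CPM, 2.25) were higher. Klf2 (50.9 and 8.09 CPM, -2.51), Fosl1 (48.3 and 10.6 CPM, -2.09) and Myc (34.8 and 10.2 CPM, -1.68) were lower. Among the 4 listed bone, cartilage and tendon markers, 2 were higher, Runx2 was lower (-1.72) and Sox9 was within 2-fold (0.21). Scx, a tendon factor, was 61.3 and 143 CPM (1.2). Spp1, which encodes osteopontin, was 1242 CPM at the start and 3707 CPM after (1.58), where differentiated GFP cells had 221 CPM. The fibroblast markers were 5 of 19, with Dcn and Gsn higher and Ly6a and Tcf4 lower. Of 12 adipocyte markers 2 are listed, with 1 higher, and of 12 Schwann and neural markers 4, with 2 lower.

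The genes with the extreme ratios came from several groups. Besides Twist2 the highest included Adamtsl2, a secreted matrix protein of microfibrils, at 0.718 CPM in GFP growth, 0.632 in Twist2 growth, 228 in Twist2 differentiation and 207 in GFP differentiation medium (7.06, interval 7.27 to 9.63). Ctrb1, a chymotrypsinogen, was 1.44, 0.181, 218 and 1241 CPM in that order (6.49). The lowest gene was Scn9a, a sodium channel (chromosome 2, 66480080 to 66634962), with 195 CPM in GFP growth, 96.0 in Twist2 growth, 0.324 CPM or 4 reads in Twist2 differentiation and 0.433 in GFP differentiation medium (-7.21, interval -11.11 to -7.88). Hhip, an antagonist of hedgehog, was 68.7 CPM at the start and 0.404 CPM, or 5 reads, after (-5.63). The water channel gene Aqp1 (95.6 and 2.91 CPM, -4.63), the homeobox gene Dlx3 (41.7 and 0.890 CPM, -4.50), Rgs4, a regulator of G-protein signalling (107 and 5.02 CPM, -4.17), Atoh8 (90.1 and 4.21 CPM, -4.13) and the adhesion receptor gene Selp (211 and 13.1 CPM, -3.91) were the next besides Cenpf, Cenpe and Xist. In differentiated GFP cells Aqp1, Dlx3, Rgs4, Atoh8 and Selp stood at 0.866 to 4.44 CPM.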

How the data were processed

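RNA sequencing of 4 libraries, 1 for each group, was used; 2 of them form the comparison. TopHat2 2.0.0, DESeq2 1.6.3 and the GRCm38 (mm10) build appear in the submitters' processing notes without a role. How reads were counted, and whether by strand, is not given in the sources used. The authors deposited 1 table of CPM values per gene and library, and 3 columns of log2 ratios per the file headers. Those columns equalled log2 ratios of CPM + 1 computed here within 1.3e-11 and were used for that check only. The values show that each listed gene reaches 10 CPM in 2 or more libraries and has a ratio of at least 2-fold to GFP growth medium in 1 of the authors' 3 comparisons.

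All CPM values were whole multiples of 1 read within 0.01 reads, which gave each gene's reads and the library totals (9235281 to 12362290). From the reads came exact counting intervals; without molecular identifiers, reads may repeat 1 molecule, and a floor of 3 reads a library stands for 0. With 1 library a group no count model was fitted. A pseudocount of 1 CPM, a minimum of 10 CPM in the higher library (all genes) or none (lists), and a 2-fold threshold were used, with Python 3.11.15 and scipy 1.17.1. In simulated counts of 3760 genes for this comparison, 100% of genes changed 3-fold and of those changed 8-fold were called, 0% of unchanged genes were, and 96% of the intervals held the true ratio. The simulation holds counting error alone, so it checks the arithmetic and says nothing of false calls from the spread between libraries.

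The 31 gene lists have 919 entries, of which 503 are in the table. The comparison and lists were chosen with earlier results of these data known. Named genes are Twist2, Twist1, Myod1, Myog, Pax7, Tmem8c and Myh3; the 10 highest, the 10 lowest and the 10 most abundant; up to 6 members of each list with the largest ratios and up to 3 at least 2-fold against its median; and 8 genes each at the starting level or of opposite sign in GFP cells. Not all are printed. Positions and longest transcripts come from GENCODE M21 on GRCm38 (3607 symbols matched directly, 139 through an older symbol, 14 unmatched), and promoters from RefSeq on GRCm38.p6.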

Additional observations from a re-analysis of the deposited data

Results flagged for a closer look

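The median change from growth to differentiation medium had opposite signs under the 2 viruses for 5 lists, each from 1 library a group, and the difference was not tested. Single members often did not follow their list's medians. The median log2 ratio of differentiation over growth medium was 1.73 in Twist2 and -0.82 in GFP cells for 18 collagens, 0.71 and -1.34 for 25 matrix glycoproteins and modifiers, and 0.92 and -1.43 for 17 matrix proteases and inhibitors. It was 1.09 and -1.59 for 21 satellite cell and myoblast genes, and 1.36 and -1.91 for the 4 listed bone, cartilage and tendon markers. Over all listed genes it was -0.22 in Twist2 and -0.40 in GFP cells. Members above 0 in Twist2 and below 0 in GFP cells numbered 9 of 18 collagens, 12 of 25 glycoproteins and modifiers and 8 of 17 proteases and inhibitors. They numbered 7 of 21 satellite cell and myoblast genes and 2 of 4 bone, cartilage and tendon markers. The share of all listed genes with these signs was not computed, so the counts have no background. In the last list Scx was higher in differentiation medium under both viruses (2.27 and 2.06) and Runx2 lower (-1.13 and -2.70).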

How the results depend on the processing

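No direction of a list median of at least 1 in size, and no called ratio among the 201 genes that the naming rule gave, reversed under another pseudocount, another scaling or, for lists, length centring. With 1 library a group no library could be left out, and no paired analysis was possible because each group has 1 library and the labels give no replicate numbers. Size factors by median of ratios left 777 genes lower, and the cause was not tested. The higher share of 44.5% became 55.6% with the outside-table scaling, 60.5% with size factors and 55.6% with length centring, which was chosen after seeing the data. Of 40 replication genes 1 was higher with a pseudocount of 0.1 CPM, and 2 were with the outside-table scaling, with size factors and with length centring. Of the collagens 1 was lower, not 2, under those last 3 settings, and their median was 2.93 with length centring. Counting only genes whose interval lies past 2-fold gave 779 higher and 938 lower. Of the 201 genes, 8 lost and 5 gained a 2-fold ratio with size factors, 7 and 4 with the outside-table scaling, 6 and 0 with a pseudocount of 5 CPM, and none with 0.1 CPM. Depth limits genes under 10 reads, which number 36 in GFP growth and 4 in Twist2 differentiation medium.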

Other observations

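Families grouped by gene name after the table was seen are set beside all listed genes, of which 25.7% were higher and 32.1% lower between the same 2 libraries. Of 88 listed Zfp zinc finger genes 61 were at least 2-fold lower and 7 higher (median -1.35), against -0.58 in differentiated GFP cells. Zfp329 (38.7 and 3.64 CPM, -3.10) and Zfp52 (34.5 and 4.21 CPM, -2.77) were the lowest, and Zfp36l1 (16.0 and 114 CPM, 2.76) and Zfp36 (12.4 and 65.4 CPM, 2.31), which encode RNA-destabilising proteins, the highest. The median longest transcript of this family was 4261 bp, in the length group of 3207 to 4355 bp, whose median ratio was -0.24. Of 27 RNA-binding genes named Rbm, Hnrnp or Srsf 15 were lower and 1, Rbm24, higher (10.7 and 68.1 CPM, 2.57). Rbm24 is a muscle splicing regulator. Hnrnph1 (439 and 132 CPM, -1.73) and Srsf10 (111 and 34.1 CPM, -1.67) were among the lowest.

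Further families were chosen in the same way. Of 13 cadherin, protocadherin and Fat genes 8 were higher and 1 lower (median 1.35), led by Cdh6 (3.69 and 39.9 CPM, 3.12), with Cdh18 lower (63.6 and 16.1 CPM, -1.92). Of 8 genes whose names begin with Itga or Itgb 5 were higher, among them Itga4 (9.54 and 62.8 CPM, 2.60) and the melusin gene Itgb1bp2, which is not an integrin (0.924 and 36.3 CPM, 4.28), and Itgb8 was lower (14.1 and 5.91 CPM, -1.12). Of 10 Wnt pathway genes 6 were higher, including the secreted Wisp1 (56.8 and 324 CPM, 2.49) and the ligand gene Wnt9a (36.7 and 125 CPM, 1.74), and Lgr6, an R-spondin receptor, was lower (331 and 21.7 CPM, -3.87). The semaphorin genes split, with Sema3e (472 and 84.7 CPM, -2.47) and Sema3a (506 and 133 CPM, -1.92) lower and Sema5a higher (81.4 and 239 CPM, 1.55). Of 17 kinesin genes 14 were lower, and Kif26b was higher (4.62 and 138 CPM, 4.63).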
